A study of Rattus norvegicus with 6 samples.

Results

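The 7 genes described here serve the supply, adhesion and activation of neutrophils. They are Csf3 and its receptor gene Csf3r, the adhesion gene Selplg, the sensor genes Fpr1 and Trem1, the Rac activator gene Prex1, and the granule gene Lcn2. They were picked by symbol, and all 7 were found among the 17030 symbols of the expression table. Messenger RNA was sequenced from samples that the study describes as primary tumors, with 1 library per rat. Cells of PAIII, a transplantable rat prostate cancer that grows without androgen, had been injected under the skin. Lobund-Wistar rats, aged 2 months when the cells were injected, received digitoxin, a cardiac glycoside that blocks the sodium-potassium pump, at 0.03 mg/kg per day from day 10 (rats A1, A6 and A12), or vehicle (rats B5, B9 and B14), so n = 3 in each group. Tumors were taken on day 40, and RNA came from 10 punches of 1 mm cut from 300 micron sections. All 6 rats carried the same tumor line, in the strain in which that tumor arose. The rats were also chosen by their serum, since the controls had high and the treated rats low IL-6 and CINC-1. CINC-1 is the chemokine encoded by Cxcl1, so treatment and serum level cannot be told apart in these groups.

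Granulocyte colony-stimulating factor (G-CSF), the product of Csf3, is secreted by stromal, endothelial, macrophage and some tumor cells, and it acts on the bone marrow to raise the output of neutrophils. Its receptor sits on neutrophils and their precursors and signals through JAK2 and STAT3. Circulating neutrophils tether to activated endothelium through P-selectin glycoprotein ligand 1, the product of Selplg, then arrest through integrins and crawl along gradients sensed by receptors coupled to G proteins. Tumors that secrete G-CSF are known to draw neutrophils into the circulation and into the tissue.

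Levels are in FPKM, which divide the fragments of a gene by its length and by the mapped fragments of its library, so genes can be set side by side. FPKM carry no read counts, so the depth behind a value is unknown. A12 and B14 stand apart from the other tumors. Their libraries correlated at r = 0.985 across genes with each other and at 0.618 to 0.865 with the other 4, which correlated at 0.856 to 0.969 among themselves. The 9 lung alveolar markers in the table summed to 17.5 FPKM in A12 and 25.2 FPKM in B14, against 27162 to 82840 FPKM in the other 4 tumors. Sftpc, the surfactant gene of alveolar cells, reached 63514 FPKM in A6 but only 0.229 FPKM in A12, and in B14 it was listed at 0. These are genes of the lung, while the study describes the samples as primary tumors from cells injected under the skin. The source of these transcripts was not tested. The differences of the 6 tested genes and the ratio of Csf3 to Csf3r are therefore also given without A12 and B14. The order of the tumors is also given without them, as planned from their levels of Csf3. The part of lung tissue in any result was not tested. Groups follow the labels throughout. A doubt raised earlier, that the labels of A1 and B9 may be exchanged, was not tested here. Such an exchange would alter the differences between groups given below.

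Promoters were read from RefSeq on GRCr8 for 5 of the 7 genes, as 250 bases before to 50 bases after the start. The promoters of the receptor gene and of the most abundant of the 7 are shown because Csf3r shared the tumor order of Csf3 in 4 tumors and Lcn2 ran almost opposite to it. In the first, on the plus strand at chr5:143582970-143583269, capitals mark the core AGGAAG bound by ETS factors such as PU.1, which drives myeloid genes, on either strand. In the second, on the minus strand at chr3:36081731-36082030, capitals mark the 10 bases that match the NF-κB consensus.
Csf3r: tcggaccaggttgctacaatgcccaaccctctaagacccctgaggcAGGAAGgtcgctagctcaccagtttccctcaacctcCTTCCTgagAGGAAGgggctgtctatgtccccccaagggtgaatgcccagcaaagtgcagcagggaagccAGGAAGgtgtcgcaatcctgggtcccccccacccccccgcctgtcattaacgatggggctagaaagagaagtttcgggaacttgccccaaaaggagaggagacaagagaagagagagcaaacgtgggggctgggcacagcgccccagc
Lcn2: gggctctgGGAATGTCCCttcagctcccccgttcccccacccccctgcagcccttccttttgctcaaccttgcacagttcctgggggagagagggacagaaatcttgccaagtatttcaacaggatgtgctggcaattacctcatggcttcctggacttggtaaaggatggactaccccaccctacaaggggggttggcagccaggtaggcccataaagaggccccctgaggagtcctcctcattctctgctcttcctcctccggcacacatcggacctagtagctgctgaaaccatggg
The Csf3r window held 4 copies of AGGAAG, of which 3 read forward and 1 reverse. That core was present in 34.5% of the 33469 promoters searched on both strands and in 3 of the 5 windows, those of Csf3r, Lcn2 and Trem1. The NF-κB consensus started 242 bases before the Lcn2 start, on the opposite strand, and was present in 4.18% of promoters. It was found in 1 of the 5 windows. The STAT spacing TTCNNNGAA, in 8.87% of promoters, was in 0 of the 5, and TATAAA, in 14.2%, was in that of Trem1. A match is a description of letters, not a bound site.

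Over the 6 tumors Lcn2 had the highest mean at 378 FPKM, followed by Trem1 at 59.0, Csf3 at 29.1, Selplg at 21.1, Csf3r at 14.9, Prex1 at 5.30 and Fpr1 at 0.363 FPKM. Within a tumor Lcn2 exceeded Trem1, Selplg exceeded Csf3r, Csf3r exceeded Prex1 and Prex1 exceeded Fpr1 in 6 of 6 tumors. Trem1 exceeded Csf3 in 5 of 6, and Csf3 exceeded Selplg in only 2 of 6, so the places of Csf3 and Selplg in this order are not separated by their spread.

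**Figure D1:**
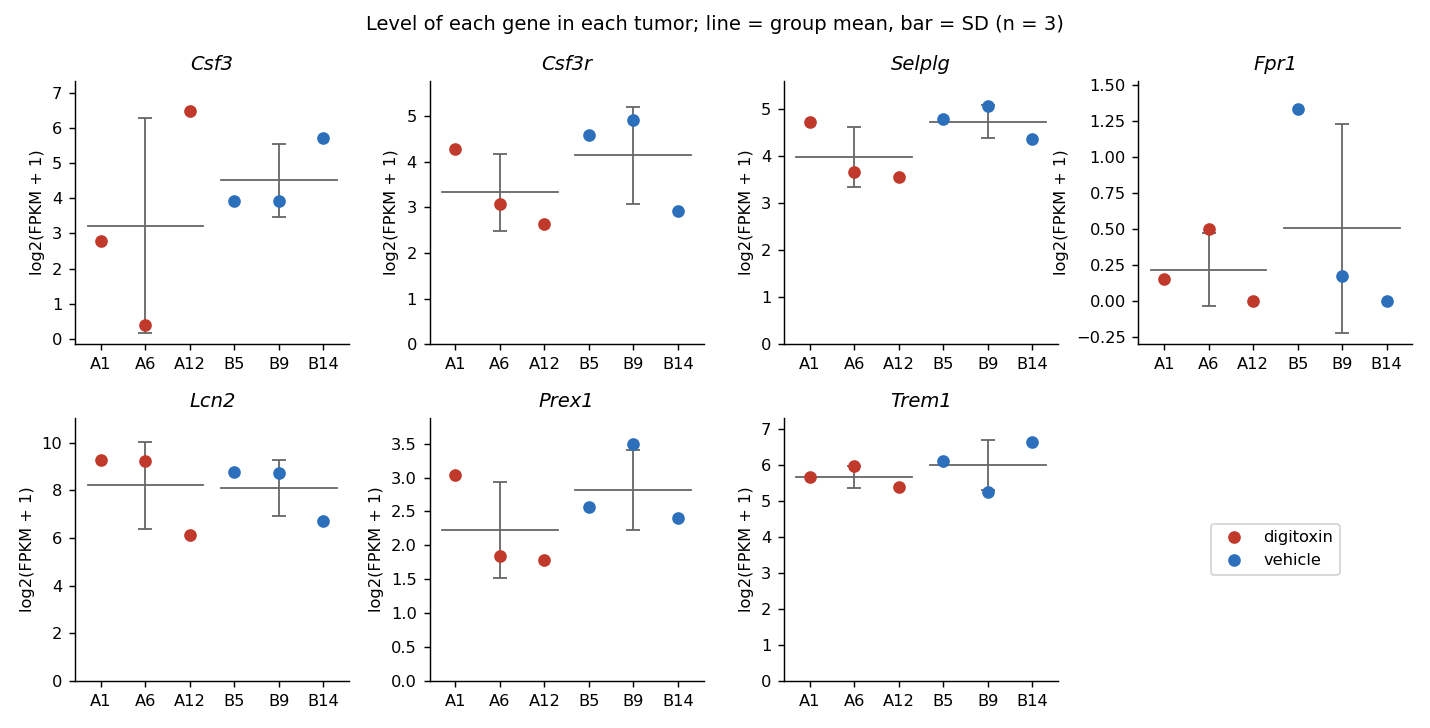
Level of each of the 7 genes in each tumor, as log2(FPKM + 1), with digitoxin-treated tumors in red and vehicle tumors in blue. Lines are group means and bars are SD (n = 3). Each panel has its own axis. The groups overlap in all 7 panels, and Csf3 spans from 0.319 FPKM in A6 to 88.6 FPKM in A12.

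Csf3 (chromosome 10, 86413102 to 86415477) was at 5.90 FPKM in A1, 0.319 FPKM in A6 and 88.6 FPKM in A12, and at 14.1 FPKM in B5, 14.1 FPKM in B9 and 51.5 FPKM in B14. Both the lowest and the highest tumor were digitoxin-treated, 278-fold apart, and the vehicle tumors lay between them, so the groups overlapped. The means were 31.6 ± 49.5 FPKM with digitoxin and 26.6 ± 21.6 FPKM with vehicle (SD, n = 3 each). On the log2(FPKM + 1) scale, which understates the change of low mRNAs, the difference of digitoxin minus vehicle was -1.29 (SE 1.51, 95% interval -4.95 to 2.37), and the adjusted p of limma was 0.926. The log2 ratio of the group means had the opposite sign, at 0.25, since A12 raises the mean on the linear scale. Among the 4 tumors with lung transcripts, A1 and A6 were below B5 and B9, with a difference of -2.32 (SE 0.78, 95% interval -4.21 to -0.43, unadjusted p = 0.0235 and adjusted p = 0.392 by limma). That fit was added after seeing the data, and 11% of all rows tested had an unadjusted p under 0.05 in it. In the same 4 tumors 6 of 6 airway markers had a higher mean with digitoxin (median difference 2.61), and lung alveolar markers had a median difference of 0.99. There 8 of 8 cell division genes had a lower mean (median difference -1.96), and the median over all rows tested was -0.24. The part of these markers and genes in the difference of Csf3 was not tested. Without A6 the difference of Csf3 over the other 5 tumors was 0.12.

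Csf3r (chromosome 5, 147793515 to 147820326) was at 18.4 FPKM in A1, 7.44 FPKM in A6 and 5.24 FPKM in A12, and at 22.9 FPKM in B5, 29.2 FPKM in B9 and 6.56 FPKM in B14. The lowest levels were in A12 and B14, the tumors with the most Csf3, and the highest were in B5 and B9. Csf3r and Selplg were lower with digitoxin in 3 of 3 same-numbered pairs, Csf3, Prex1 and Trem1 in 2, and Lcn2 and Fpr1 in 1. No label says what a number marks, and the share of such rows over all rows was not counted. The groups overlapped in Csf3r, with means of 10.4 ± 7.05 FPKM with digitoxin and 19.5 ± 11.7 FPKM with vehicle. Their log2 difference was -0.80 (SE 0.67, 95% interval -2.43 to 0.82, adjusted p = 0.926 by limma). In bulk tumor RNA, fewer cells of a type and less RNA per cell cannot be told apart, which holds for this receptor and for every leukocyte gene below. Without A12 and B14 the difference was -1.07 (SE 0.47, adjusted p = 0.392).

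The ratio of ligand to receptor mRNA separated the tumors along the same line. Csf3 divided by Csf3r was 0.321 in A1, 0.0429 in A6, 0.615 in B5 and 0.483 in B9, but 16.9 in A12 and 7.86 in B14. The ligand thus exceeded the receptor in the pair of tumors nearly free of lung transcripts, 1 from each group, and was below it in the other 4. On the log2 scale with 1 added to each level, the mean ratio was -0.11 ± 3.47 with digitoxin and 0.38 ± 2.10 with vehicle. The difference of -0.49 had p = 0.80 in a two-sided exact permutation test, in which 3 against 3 cannot go below 0.10. Without A12 and B14 the difference was -1.25, but its sign was not stable, at 0.21 without A1, 0.80 without A6 and 0.72 without B14.

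Of the 19 tested genes of G-CSF signalling, a list that holds Csf3r, 10 had a lower and 9 a higher mean log2 level with digitoxin, and 0 passed an adjusted p of 0.05. Over all rows tested 64.9% were lower, the share to set beside this and each later count over the 6 tumors. The median difference of the 19 genes was -0.08, against -0.16 over all rows tested. It became 0.12 with median-of-ratios scaling, which moves the median of all rows by 0.18. With 1 tumor left out it ran from -0.25 to 0.01. Of 14 tested genes for other colony-stimulating factors and inducers of Csf3, 7 were lower and 7 higher, with a median of -0.03 (0.16 with median-of-ratios scaling, and from -0.15 to 0.43 with 1 tumor left out). Il1b, the most abundant of them, was between 55.1 FPKM in A12 and 217 FPKM in A6. Jak2, the kinase that the receptor activates, was at 13.9, 5.42 and 16.9 FPKM in A1, A6 and A12 and at 17.8, 21.6 and 21.2 FPKM in B5, B9 and B14. Its groups did not overlap, as for 4.16% of all rows tested, and its log2 difference of -0.82 (SE 0.43) had an unadjusted p of 0.104 and an adjusted p of 0.926 by limma. Stat3, the main transcription factor of the pathway, stayed between 52.9 and 67.3 FPKM in the 6 tumors. Socs3, a target gene of STAT3 whose product dampens the receptor, was lowest in A6 at 26.7 FPKM and highest in A12 at 93.8 FPKM, the same tumors that held the lowest and highest Csf3.

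Selplg (chromosome 12, 50359788 to 50361080) was at 25.4 FPKM in A1, 11.8 FPKM in A6 and 10.8 FPKM in A12, and at 26.6 FPKM in B5, 32.7 FPKM in B9 and 19.5 FPKM in B14. A1 lay above B14, so the groups overlapped, though each digitoxin-treated tumor was below the vehicle tumor of the same number. The means were 16.0 ± 8.16 FPKM and 26.3 ± 6.58 FPKM. The log2 difference was -0.75 (SE 0.40, 95% interval -1.72 to 0.21, adjusted p = 0.926 by limma), the smallest unadjusted p among these genes at 0.105 by limma. It was -0.73 without A12 and B14 and -0.56 with median-of-ratios scaling.

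Among the 12 enzymes that build selectin ligands, 10 had a lower and 2 a higher mean with digitoxin, against 64.9% lower over all rows tested. The median difference of the 12 was -0.28 (-0.08 with median-of-ratios scaling, -0.40 without A12 and B14, and from -0.46 to -0.21 with 1 tumor left out). Of the 19 tested selectins, integrins and their partners, 9 were lower and 10 higher, with a median of 0.14 (0.32 with median-of-ratios scaling, 0.36 without A12 and B14, and from -0.33 without B14 to 0.56 without A12 with 1 tumor left out). None of either list passed the adjusted threshold. Itgb2, the shared chain of the leukocyte integrins, was at 113, 112 and 19.4 FPKM in A1, A6 and A12 and at 74.1, 90.3 and 42.4 FPKM in B5, B9 and B14, lowest in A12 and B14. Selp, the endothelial P-selectin that the Selplg product binds, was between 1.91 and 8.29 FPKM, also lowest in A12 and B14. Sele, the other endothelial selectin, stayed below 1 FPKM in all 6 tumors.

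Fpr1 (chromosome 1, 60685360 to 60686568), which encodes the receptor for bacterial and mitochondrial formyl peptides, was at 0.113 FPKM in A1, 0.413 FPKM in A6, 1.52 FPKM in B5 and 0.130 FPKM in B9, and listed at 0 in A12 and B14. Only B5 was above 1 FPKM. The mean of 0.363 FPKM was under the minimum of 1 FPKM for testing, so no fold change was fitted. Of the 10 tested chemoattractant and danger receptors, 9 had a lower mean with digitoxin, against 64.9% of all rows, and 0 passed the adjusted threshold. Their median difference was -0.29, with 6 of 10 lower and a median of -0.13 under median-of-ratios scaling, and 7 of 10 lower and a median of -0.14 without A12 and B14.

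Prex1 (chromosome 3, 169494330 to 169575981) encodes a guanine nucleotide exchange factor that activates Rac downstream of chemoattractant receptors. It was at 7.24 FPKM in A1, 2.58 FPKM in A6 and 2.46 FPKM in A12, and at 4.93 FPKM in B5, 10.3 FPKM in B9 and 4.28 FPKM in B14. A1 exceeded B5 and B14, so the groups overlapped. The log2 difference was -0.60 (SE 0.51, 95% interval -1.82 to 0.63, adjusted p = 0.926 by limma), and it was -0.59 without A12 and B14. With 1 tumor left out it ran from -1.01 without A1 to -0.26 without B9. Rac2, the Rac form of blood cells, followed another order, at 264, 489 and 39.1 FPKM in A1, A6 and A12 and at 247, 191 and 66.4 FPKM in B5, B9 and B14. Of the 17 tested genes of Rac exchange and chemotaxis signalling, 10 were lower and 7 higher, with a median of -0.08 (0.12 with median-of-ratios scaling, and from -0.40 without A6 to 0.17 without A12 with 1 tumor left out), and 0 passed the adjusted threshold.

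Trem1 (chromosome 9, 13649245 to 13660307) encodes an activating receptor of neutrophils and monocytes that signals through the adaptor DAP12. It was at 49.2 FPKM in A1, 61.3 FPKM in A6 and 40.4 FPKM in A12, and at 67.9 FPKM in B5, 37.2 FPKM in B9 and 98.0 FPKM in B14. It varied least of the 7 genes, 2.63-fold from lowest to highest, and it was the only one of them highest in B14. The log2 difference was -0.34 (SE 0.39, 95% interval -1.28 to 0.60, adjusted p = 0.926 by limma), and it turned to 0.12 without A12 and B14. Tyrobp, which encodes DAP12, was lowest in A12 at 287 FPKM and B14 at 488 FPKM and highest in A6 at 1882 FPKM, a different order from its receptor partner. Of the 11 tested Trem family and DAP12 signalling genes, 6 were lower and 5 higher, and 0 passed the adjusted threshold. With median-of-ratios scaling 4 of these genes were lower, and without A12 and B14 3 were. Their median of -0.06 became 0.14 with median-of-ratios scaling and 0.30 without A12 and B14, and it ran from -0.46 without A6 to 0.66 without A12 when 1 tumor was left out.

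Lcn2 (chromosome 3, 16763058 to 16766404) encodes neutrophil gelatinase-associated lipocalin, which binds bacterial siderophores and is made both by neutrophil precursors and by inflamed epithelium, that of the airways included. It was at 624 FPKM in A1, 606 FPKM in A6 and 68.2 FPKM in A12, and at 441 FPKM in B5, 424 FPKM in B9 and 105 FPKM in B14. Levels in A12 and B14 were the lowest of the 6, and A1 and A6 lay above B5 and B9. The log2 difference over all 6 was 0.14 (SE 1.02, 95% interval -2.32 to 2.59, adjusted p = 0.983 by limma), and it was 0.51 (SE 0.26, adjusted p = 0.394) without A12 and B14. Its sign was not stable, at -0.40 without A1, -0.38 without A6 and -0.54 without B14. Slc22a17, which encodes a lipocalin 2 receptor, was also lowest in A12 at 2.13 FPKM and B14 at 2.75 FPKM. Pigr, an epithelial gene of the same list, reached 296 FPKM in A6 but was at 0.0217 FPKM in B14 and listed at 0 in A12. The 6 airway markers summed to 2.31 FPKM in A12 and 1.56 FPKM in B14, against 20918 to 130844 FPKM in the other 4 tumors, and the part of airway tissue in the level of Lcn2 was not tested.

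The plot of differences under 3 fits shows the tested genes together. None of the 6 passed an adjusted p of 0.05, where 0% of the 10749 rows tested did so, and none had an unadjusted p under 0.05, against 0.335% of rows. None of the 6 had groups without overlap, against 4.16% of rows. The mean log2 level was lower with digitoxin for 5 of the 6, all but Lcn2, against 64.9% of all rows, and for 4 of the 6 without A12 and B14. The study itself singled out Csf3, Csf3r, Selplg and Prex1 in tumors of this experiment, without stating which tumors it used. That count is therefore not taken as independent evidence of a direction. With the replicate number as a block, 446 rows, or 4.15%, in place of 36 had an unadjusted p under 0.05, but none of these 6 genes was among them. The lowest were Selplg at 0.0638 and Csf3r at 0.0941 by limma with the block.

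**Figure D2:**
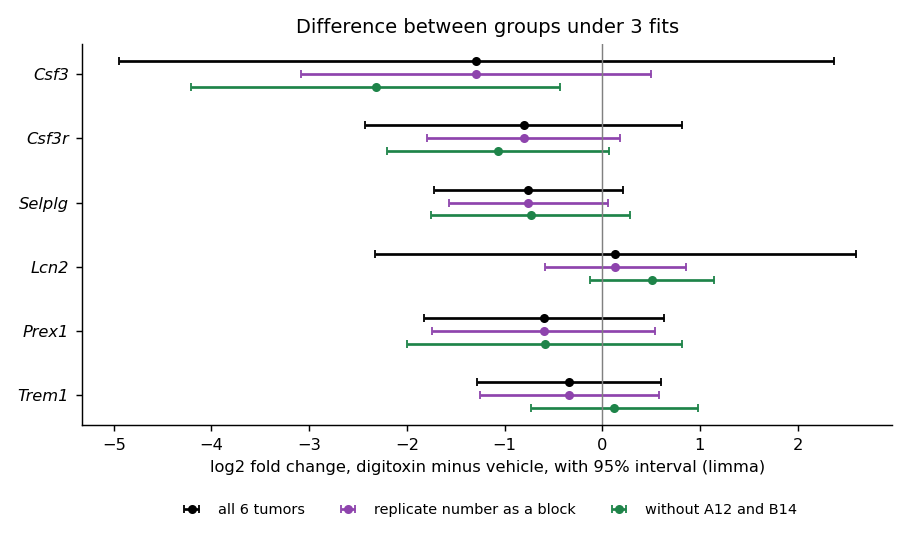
Log2 fold change of digitoxin minus vehicle for the 6 tested genes, with 95% intervals from limma over all 6 tumors (black), with the replicate number as a block (purple) and without A12 and B14 (green). Every black and purple interval crosses 0, and only the green interval of Csf3, -4.21 to -0.43, does not. In the green fit 11% of all rows tested had an unadjusted p under 0.05.

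From low to high, Csf3 ordered the tumors A6, A1, B5, B9, B14 and A12, with B5 and B9 nearly equal. The tumors fall into separate clusters, so the relation of Csf3 to the other 6 genes is given by the order of tumor pairs and not by a correlation. Of the 15 pairs, Selplg and Trem1 ordered 7 as Csf3 did, Csf3r and Prex1 6, Fpr1 3 and Lcn2 1. A12 and B14 held the most Csf3, so leaving them out selects tumors by Csf3 itself. Among the 6 pairs that leave out A12 and B14, Csf3r and Selplg ordered 6 of 6 as Csf3 did, Prex1 5, Fpr1 3, Trem1 2 and Lcn2 1. Ligand and receptor thus had the same order in the 4 tumors with lung transcripts, A6 below A1 below B5 below B9, and parted in A12 and B14. The step from B5 to B9 is not firm, since median-of-ratios scaling gave Csf3 a level of 13.2 for B5 and of 12.03 for B9, which left 5 of 6 pairs for Csf3r and 4 of 6 for Selplg and Prex1. The shared order is also common, since 22.7% of all other rows tested also ordered 6 of 6 pairs this way. Lcn2 ran almost opposite to Csf3 over all 6 tumors, as did 9.60% of rows with at most 1 of 15 pairs.

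**Figure D3:**
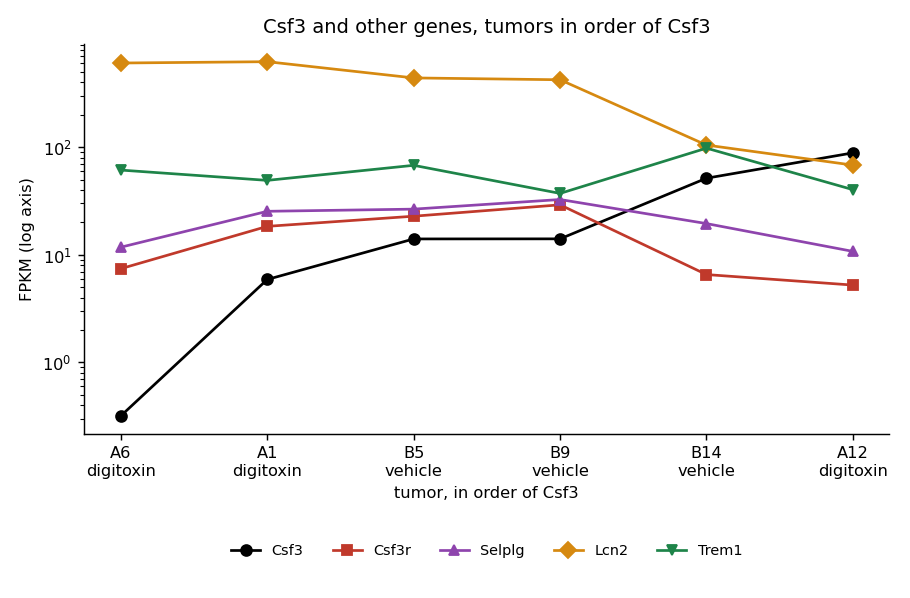
FPKM on a log axis for Csf3, Csf3r, Selplg, Lcn2 and Trem1, with the 6 tumors in order of Csf3. Csf3r climbs from 7.44 to 29.2 FPKM over the first 4 tumors and then drops to 6.56 and 5.24 FPKM where Csf3 is highest, while Lcn2 goes from 606 to 68.2 FPKM.

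The neutrophil chemokines differed among themselves in how they followed Csf3. Of the 15 pairs, Cxcl5 ordered 15 as Csf3 did, Ppbp 14, and Cxcl1 and Cxcl2 13 each, but Cxcl3 ordered only 1, all of them ligands of CXCR2. The other ligands of the list, Ccl3, Cxcl12 and Pf4, ordered 10, 6 and 4. Socs3 ordered 14. At least 13 of 15 was reached by 31.9% of rows and at least 14 by 20.6%. Cxcl2 was at 3.14, 0.311 and 93.7 FPKM in A1, A6 and A12 and at 24.6, 6.50 and 234 FPKM in B5, B9 and B14, so it shared with Csf3 a minimum in A6 and high values in A12 and B14. Cxcl1, the gene of the serum marker CINC-1, ranged from 14.96 FPKM in A6 to 28.9 FPKM in A12. Cxcr2, their receptor on neutrophils, ordered 7 of 15 and was at 17.4, 7.95 and 8.95 FPKM in A1, A6 and A12 and at 36.9, 27.5 and 12.7 FPKM in B5, B9 and B14, with a log2 difference of -1.06 (SE 0.49, adjusted p = 0.926 by limma). It was lower with digitoxin in 3 of 3 same-numbered pairs. Of the 12 tested chemokines and receptors of this list, 8 were lower and 4 higher with digitoxin, against 64.9% lower over all rows tested. The median of the list was -0.55 (-0.35 with median-of-ratios scaling), and 0 passed the adjusted threshold in any of these fits. At an unadjusted p under 0.05 the genes depended on the fit, as did the share of all rows, which was 4.15% with the replicate block, 11% without A12 and B14 and 0.363% with median-of-ratios scaling. Cxcr4, the receptor that retains neutrophils in the marrow, differed by -0.61 (SE 0.23), with an unadjusted p of 0.0389 by limma over the 6 tumors but of 0.0583 with the replicate block, 0.215 with median-of-ratios scaling and 0.127 without A12 and B14. With the block the genes under 0.05 were Ccr1, Cxcl2 and Cxcr2. Without A12 and B14 they were Cxcl2, Cxcl5 and Cxcr2, and with median-of-ratios scaling there were none. Cxcl2 differed by -2.15, with an SE of 1.89 and an unadjusted p of 0.297 by limma over the 6 tumors, and an SE of 0.36 and an unadjusted p of 0.000756 with the block, where the adjusted p of limma was 0.638. The unadjusted p of Cxcr2 by limma was 0.0183 with the block and 0.0196 without A12 and B14.

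By likeness of pattern over the 6 tumors, the genes closest to Csf3 were Got2, Apobec3b, Dpp3, Nsun6 and Anapc5, each with Pearson's r = 0.999 on the log2(FPKM + 1) scale. Likeness to Csf3 was common, with r of at least 0.95 for 1275 of 8616 genes compared, or 14.8%. For Csf3r the closest were Fdxacb1 at 0.996, Pip5k1b at 0.995, Stradb at 0.990, Chmp6 at 0.985 and RGD1306746 at 0.983, and only 43 genes, or 0.499%, reached 0.95. These r serve only to rank genes by likeness, since the 6 libraries share the split between A12 and B14 and the rest, and they test no relation.

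Neutrophil markers spread widely across the tumors of both groups. The 13 neutrophil markers summed to 24304 FPKM in A1, 62890 FPKM in A6 and 1330 FPKM in A12, and to 33016 FPKM in B5, 11062 FPKM in B9 and 3373 FPKM in B14, so the sum was lowest in A12 and B14, where Csf3 was highest. S100a8 and S100a9, the calprotectin genes, made up most of these sums, with S100a8 from 576 FPKM in A12 to 34402 FPKM in A6. Cxcr1 and Ngp were between 7.52 and 36.7 FPKM in the other 4 tumors and listed at 0 in A12 and B14. Mpo, the defining enzyme of primary granules, stayed at or below 0.270 FPKM in every tumor, and Elane lay between 1.16 and 3.38 FPKM. Of the 10 markers tested, 4 were lower and 6 higher with digitoxin, and of 20 granule genes 9 were lower and 11 higher. None passed the adjusted threshold.

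Several other cell types moved with the same split, but not all. Red blood cell markers summed to 117 FPKM in A12 and 391.5 FPKM in B14 against 3573 to 13163 FPKM elsewhere, and 7 of 7 were lowest in that pair. The 6 pan-leukocyte genes summed to 297 and 525 FPKM in that pair and to 1294 to 1986 FPKM in the other 4. Over all rows tested, 29.3% had their lowest levels in A12 and B14, and 30.1% their highest. Macrophage markers were mixed, since 5 of 13 were lowest in that pair and 3 highest. Fibroblast markers were highest there, at 2807 FPKM in A12 and 3972 FPKM in B14 against 221 to 840 FPKM. The summed cell division genes had the same order as Csf3, from 56.4 FPKM in A6 to 555 FPKM in A12. Their part in the levels of Csf3 was not tested.

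**Figure D4:**
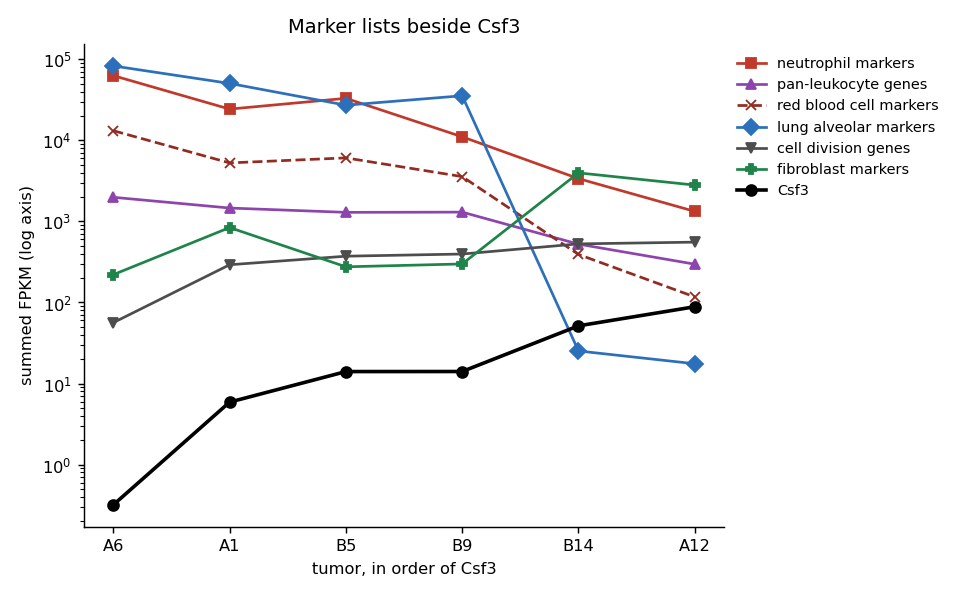
Summed FPKM of 6 marker lists and the FPKM of Csf3, on a log axis, with the tumors in order of Csf3. The lung alveolar sum drops from 35501 FPKM in B9 to 25.2 FPKM in B14, and the neutrophil, leukocyte and red blood cell sums are also lowest in B14 and A12, where Csf3, fibroblast and cell division levels are highest or among the highest.

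Set against the mean log2 level of the 6 pan-leukocyte genes in the same tumor, 5 of the 6 genes with a mean of at least 1 FPKM had a lower mean with digitoxin, against 51.9% of all rows tested, and only Lcn2 a higher one. The differences were -1.15 for Csf3, -0.66 for Csf3r, -0.61 for Selplg, -0.45 for Prex1, -0.19 for Trem1 and 0.28 for Lcn2. Fpr1 was listed at 0 in A12 and B14, so its values there only mirror the leukocyte genes and it was left out of the count. For these 6 genes the two-sided exact permutation test gave p between 0.40 and 0.80. With 3 against 3 its p cannot go below 0.10. No gene could therefore reach the threshold used for the other tests, and no conclusion is drawn from it. The count rests on A6, since without it 2 of the 6 were lower. It was 4 without A1, 4 without B14 and 4 against Ptprc alone, and 5 without A12 and B14. For Lcn2 the range over the 6 tumors narrowed from 3.17 to 1.20 on the log2 scale. For Csf3 it widened from 6.09 to 8.48. It also widened for Selplg (1.52 to 2.28), Prex1 (1.71 to 2.35) and Trem1 (1.37 to 2.69), and went from 2.27 to 2.11 for Csf3r.

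**Figure D5:**
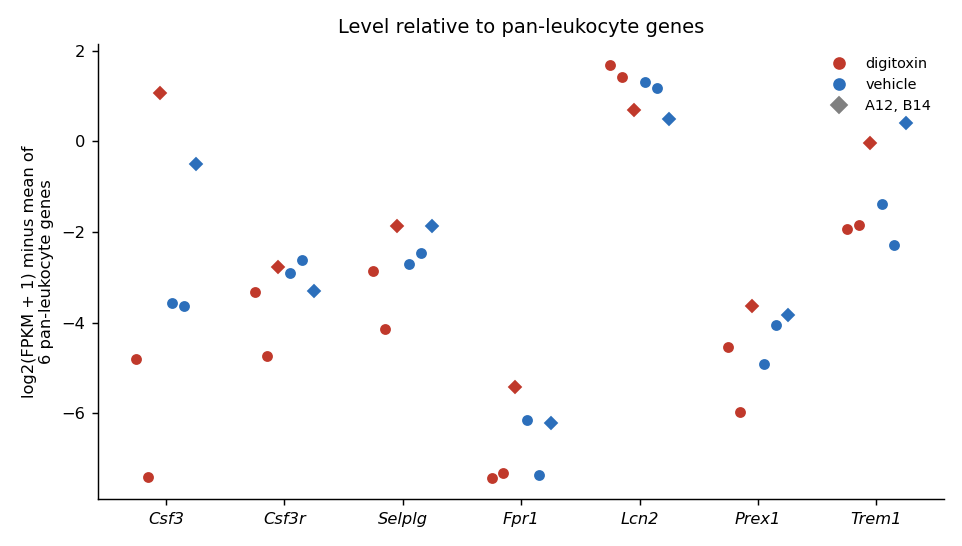
Level of each gene as log2(FPKM + 1) minus the mean of 6 pan-leukocyte genes in the same tumor, with digitoxin in red, vehicle in blue and A12 and B14 as diamonds. Csf3 is 1.07 above the leukocyte genes in A12 and at -7.42 relative to them in A6, while Lcn2 stays between 0.50 and 1.69 above them.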

How the data were processed

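Poly(A) RNA of 1 punch-sampled tumor per rat was made into TruSeq libraries by the authors, who aligned the reads with Bowtie2 and TopHat2 and computed FPKM with Cufflinks. The deposited FPKM table has 17557 rows. The submitters' notes name hg19, a human build, for these rat samples, so the positions printed for genes have no stated rat build and are not those of GRCr8. For a repeated symbol, the row of highest mean FPKM was used. Library preparation did not mark strand, so antisense reads cannot be told apart.

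Groups were compared on log2(FPKM + 1) with limma 3.58.1 in R 4.3.3 (lmFit, eBayes with trend, two-sided, Benjamini-Hochberg) over the 10749 rows averaging 1 FPKM or more. FPKM sums were 651322 to 1025230 per library, and 10 rows held 9.24 to 36.3% of them. Steps between low FPKM put the depth of A12 at 0.50 and of B14 at 0.747 of that of B9, from 4.67% and 3.83% of the rows used, and fixed no ratio for the others. Simulated data with 200 genes changed by 4 on the log2 scale gave 143 calls, all of the right sign, and 12 false calls. Exact permutation tests went through every split of the tumors into groups, in Python 3.11.15 with numpy 2.4.6.

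Rats are separate animals, so p-values measure the spread between rats. Deviations from the group means correlated for same-numbered tumors at r = 0.426, 0.606 and 0.869, so the numbers were treated as pairs. No label says what a number marks, and A1 with B9 (0.644) and A6 with B5 (0.612) moved together as closely. Alternatives were a pseudocount of 0.1, median-of-ratios scaling, no trend, the replicate block, no filter, ratios of group means, Ptprc alone as the leukocyte reference and each tumor left out. Leaving out both A12 and B14 was planned for the order of tumors and added for all other results after seeing the data.

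The 7 genes and all lists were chosen with earlier results of these data known. Named besides the 7 were fixed direct partners, the most abundant gene of each list, list genes with an unadjusted p under 0.05, and the 5 genes most like Csf3 and Csf3r. The result of 1 fixed partner is not reported here.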

Additional observations from a re-analysis of the deposited data

How the results depend on the processing

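With limma, 0 rows passed an adjusted p of 0.05 over all 6 tumors (36 at an unadjusted p under 0.05). Without vehicle replicate 3 there were 2, and also 2 without A12 and B14, so leaving out 1 tumor gave 0 to 2. They are Mir3561 and Mir3567, named after their values were seen and listed at 0 in every tumor but B5 and B9. The count at an unadjusted p under 0.05 was 446 with the replicate block, 185 with no filter, 1183 without A12 and B14 and from 13 to 2114 with each tumor left out, the highest without A12. The block moved Cxcr4 above and Ccr1, Cxcl2 and Cxcr2 under an unadjusted p of 0.05, and it changed no call of the 7 genes and none at an adjusted p of 0.05. From 5 to 6 of the tested genes were below 0 with a tumor left out, and 4 without A12 and B14. Csf3 was 0.12 without A6 and 0.25 as a ratio of group means. Over single tumors left out it ran from -2.92 to 0.12, Csf3r from -1.41 to -0.42, Selplg from -1.12 to -0.54, Prex1 from -1.01 to -0.26 and Trem1 from -0.71 to -0.02. Trem1 was 0.12 without A12 and B14. Lcn2 ran from -0.54 to 1.19, below 0 without A1 (-0.40), A6 (-0.38) or B14 (-0.54). The Csf3 to Csf3r difference ran from -2.46 to 0.80. Relative to leukocyte genes, 6 of the 7, Fpr1 included, were lower over all tumors and 2 to 6 with a tumor left out, 2 without A6. The median share of tumor pairs ordered as by Csf3 was 40% over the other 6 genes, 66.7% without A12 and B14, 58.3% when those 4 tumors were also scaled by median of ratios, and 25 to 60% with a tumor left out, 60% without A12. The cause of these shifts was not tested. Depth is unknown, so low values such as those of Fpr1 have no known precision. Of 49 partner genes tested, 30 changed sign in at least 1 alternative and 7 with scaling.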

Other observations

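Of the 229 list genes tested, 3 had an unadjusted p under 0.05 by limma, against 0.335% of all rows, and 9 had groups without overlap, against 4.16%. Besides Cxcr4 the 3 were Mpeg1 and Cd4. With the replicate block 29 were under 0.05 (4.15% of all rows), without A12 and B14 42 (11% of all rows), and with median-of-ratios scaling 2 (0.363% of all rows), and 0 passed the adjusted threshold in any of these fits. Mpeg1, a pore-forming protein of macrophages, was at 16.2, 2.68 and 7.50 FPKM in A1, A6 and A12 and at 19.2, 30.6 and 22.0 FPKM in B5, B9 and B14. Every digitoxin-treated tumor was below every vehicle tumor, with a log2 difference of -1.59 (SE 0.58, adjusted p = 0.926 by limma). Its unadjusted p by limma was 0.0330, and 0.0618 without A12 and B14. Cd4, carried by helper T cells and rat macrophages, was at 6.94, 5.43 and 6.94 FPKM against 8.70, 12.6 and 19.2 FPKM, again without overlap, and its difference was -0.90 (SE 0.36, adjusted p = 0.926 by limma). Its unadjusted p by limma was 0.0431, but 0.143 without A12 and B14 and 0.0732 with median-of-ratios scaling. Of the 13 tested macrophage markers, 10 had a lower and 3 a higher mean with digitoxin, against 64.9% lower over all rows tested. The median of the 13 was -0.60 (-0.40 with median-of-ratios scaling, -0.19 without A6 and -0.31 without B14). C1qa, a complement gene of macrophages, was highest in B14 at 435 FPKM and lowest in A6 at 72.3 FPKM, with overlapping groups. Its unadjusted p by limma was 0.365 over the 6 tumors and 0.0299 with the replicate block, where its adjusted p was 0.638. Under an unadjusted 0.05 were 6 of the 13 macrophage markers with the block, 1 without A12 and B14 and 1 with median-of-ratios scaling. Among 11 T and NK cell markers 6 were lower and 5 higher, with a median of -0.02 (0.17 with median-of-ratios scaling, and from -0.57 without B14 to 0.65 without A12 with 1 tumor left out).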
